A study of Mus musculus with 6 samples.

Results

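The 9 genes described here encode enzymes that carry pyruvate into and around the tricarboxylic acid (TCA) cycle. They were chosen by symbol, *Pdha1*, *Pdhb*, *Dlat* and *Dld* of the pyruvate dehydrogenase (PDH) complex and *Cs*, *Idh3a*, *Ogdh*, *Fh1* and *Mdh2* of the cycle, and all 9 were found among the 55364 genes of the table, each on 1 row. They were measured by RNA-seq in mouse embryos of the BDF1 x BDF1 cross at the morula stage. Zygotes were made by in vitro fertilization of oocytes from superovulated females. They were injected with a control siRNA (control KD) or with an siRNA against *Yy1* (*Yy1* KD). The embryos were cultured in KSOM medium and collected 64 h after insemination. Each group had 3 libraries, and each library was made from the total RNA of 10 pooled morulae whose sex is not known. *Yy1* encodes YY1, a zinc finger transcription factor. A knockdown leaves part of the transcript in place, and the control embryos were injected in the same way.

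The PDH complex sits in the mitochondrial matrix and turns pyruvate into acetyl-CoA. The TCA cycle then oxidises the acetyl group to carbon dioxide and passes the electrons to the respiratory chain as NADH and reduced flavin. Cleavage-stage mouse embryos depend on pyruvate as an energy source, and their use of glucose rises as they approach the blastocyst stage.

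The siRNA lowered its target in all 3 libraries, with *Yy1* at 89.8 to 100.2 TPM under control KD against 8.32 to 8.90 TPM under *Yy1* KD (limma adjusted p = 6.71e-05). TPM, a transcript abundance, expresses read pairs per unit of exon length and is scaled to the same sum, 1000000, in each library. It can be compared between genes only as far as the annotated exon lengths fit the transcripts present, and a gene's value depends on all others in the library. Between 11793509 and 24417789 read pairs on genes were recovered per library. Morula and early lineage markers were present, such as *Pou5f1* at 649 to 742 TPM and *Cdx2* at 56.1 to 69.3 TPM. Of 7 cumulus cell markers, 4 were at 0 in every library and the highest single value of any was 1.16 TPM. The summed level of 8 oocyte transcripts was 78.1 to 103 TPM under control KD against 94.7 to 108 TPM under *Yy1* KD. Of the 29 markers of oocyte, trophectoderm, inner cell mass, primitive endoderm and morula tested, 1 was called, *Tfap2c* at 68.5% of the control (limma adjusted p = 0.0174), and 6 were lower and 2 higher in *Yy1* KD without overlap. That is 3.45% called and 27.6% without overlap, beside 6.11% and 30.1% of all genes tested. *Fgf4* (44.4% of the control), *Sox2* (51.0%), *Tdgf1* (53.5%) and *Pdgfra* (47.9%), markers of the inner cell mass or primitive endoderm, were among the 6 and were not called, with limma adjusted p from 0.0607 to 0.115. In the same lists *Gata6* (108.3%, without overlap), *Gata4* (119.5%) and *Klf4* (108.3%) were above the control. *Pou5f1* (96.0%), *Sall4* (93.7%) and *Nanog* (85.55%) were below it. The part of these markers in the values of the 9 genes was not tested. In whole embryos, fewer cells that express a gene and less RNA per cell cannot be told apart. No source used here says whether the pools came from separate fertilizations or days, so p-values measure the spread between these pools.

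In control KD morulae the mean level of the 9 transcripts ranged from 14.8 to 308.1 TPM. *Pdha1* had the highest mean and was followed by *Mdh2*, *Pdhb*, *Cs*, *Dld*, *Ogdh*, *Idh3a*, *Dlat* and *Fh1*. The 3 control values of each gene lay wholly above those of the next gene in this order. Ranked among the 17353 genes tested, their control means stood between percentile 60.7 (*Fh1*) and percentile 97.4 (*Pdha1*). Within the PDH complex the transcripts were far from equal in level. *Pdha1* exceeded *Pdhb*, which encodes the other subunit of the same enzyme, and *Dlat*, which encodes the core of the complex, was the lowest. In *Yy1* KD morulae the order differed at 1 place, where *Cs* (mean 114 TPM) stood above *Pdhb* (108 TPM), with overlapping values. The values of *Ogdh* and *Idh3a* also overlapped there, and all other neighbours stayed apart.

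**Figure D1:**
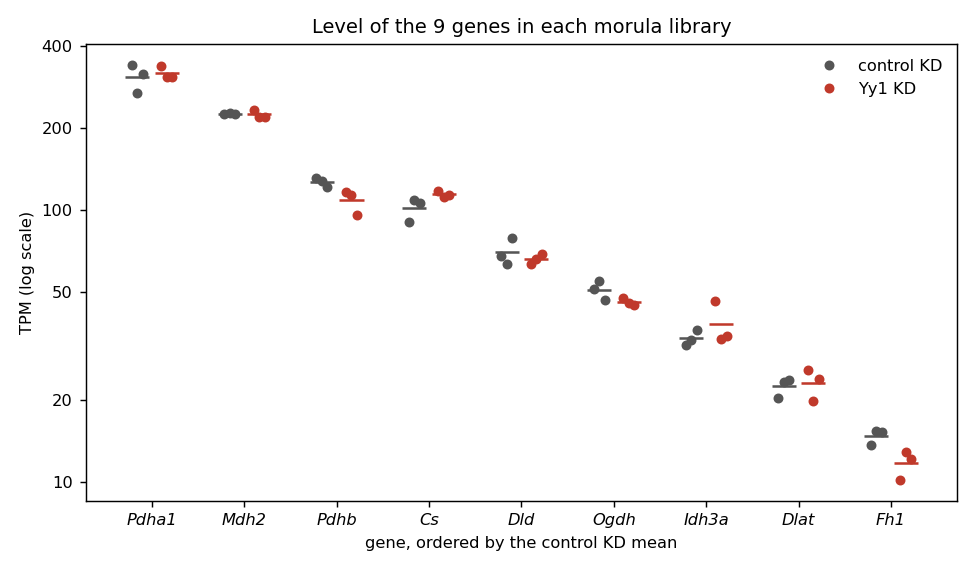
TPM on a log scale of each of the 9 genes in the 3 control KD libraries (grey) and the 3 *Yy1* KD libraries (red); points are libraries and bars are group means. Apart from *Pdhb*, *Cs* and *Fh1*, the red and grey points of each gene overlap.

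The comparison of *Yy1* KD with control KD morulae asks whether the level of these transcripts depends on YY1. None of the 9 genes passed the test. The test was limma on log2(TPM + 1), run over every gene that reached 1 TPM in 3 or more of the 6 libraries. All 9 genes passed this filter, and a gene was called at a Benjamini-Hochberg adjusted p under 0.05. Thus 0 of 9 genes were called, beside 6.11% of all genes tested (1.92% upregulated and 4.20% downregulated). All 9 genes had a mean of at least 10 TPM, and of all genes tested at that level 9.35% were called. The number at an unadjusted p under 0.05 was 2 (*Pdhb* and *Fh1*), or 22.2%. This was beside 23.8% of all genes tested and 32.1% of those with a mean of at least 10 TPM. On the recovered read pairs, limma-voom also called 0 of 9, with the same 2 at an unadjusted p under 0.05. That number was 0 with median-ratio scaling and with quantile normalization, and 0 or 1 in the fits that left out 1 library. With quantile normalization 388 of all genes were called upregulated and 548 downregulated, against 333 and 728 in the test as reported, and none of the 9 genes was among them.

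For the 9 genes the median log2 fold change was -0.007, beside -0.025 for all genes tested. Their median absolute log2 fold change was 0.14, against 0.26 for all genes tested and 0.215 for the 8084 genes with a mean of at least 10 TPM. Individual log2 fold changes ran from -0.31 (*Fh1*) to 0.17 (*Cs*), and 4 were above and 5 below 0. In 3 genes the 3 values of each group did not overlap, lower in *Yy1* KD for *Pdhb* and *Fh1* and higher for *Cs*. That is 33.3% of the 9, near the 30.1% of all genes tested that did not overlap (17.2% lower and 12.9% higher). Of the 8084 genes with a mean of at least 10 TPM, 37.4% did not overlap. The summed level of the 9 transcripts was 953 ± 28.6 TPM (SD, n = 3) in control KD and 949 ± 41.5 TPM (SD, n = 3) in *Yy1* KD morulae (two-sided exact permutation test, p = 1).

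**Figure D2:**
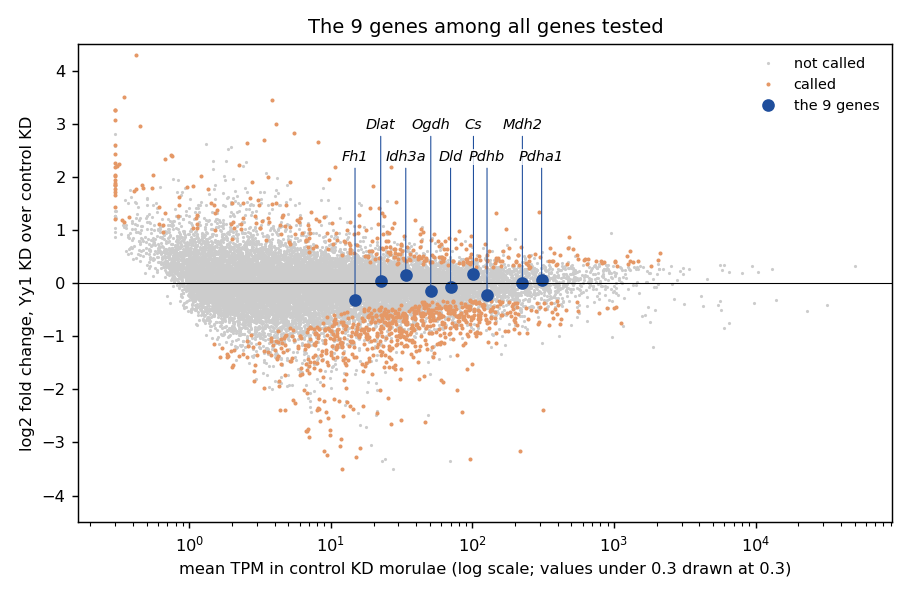
Log2 fold change of *Yy1* KD over control KD against the control KD mean TPM (log scale) for all 17353 genes tested, with genes called in orange, genes not called in grey and the 9 genes in blue. The 9 genes lie between -0.31 and 0.17, within the grey band at their levels.

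*Pdha1* encodes the alpha subunit of the pyruvate decarboxylase of the complex, the subunit whose phosphorylation switches the complex off. It lies on the minus strand of the X chromosome (GRCm38, 160122209 to 160138413). The control KD libraries measured 341, 268 and 316 TPM, and those of *Yy1* KD 337, 307 and 308 TPM. All *Yy1* KD values fell inside the control range. On the log2 scale the difference was 0.05 with a standard error of 0.10 and a 95% interval from -0.20 to 0.29 (limma adjusted p = 0.822). Of its exon bases, 16.1% are shared with *Map3k15* on the opposite strand. Read pairs were assigned without regard to strand, and those in the shared part were divided between both genes. *Map3k15* was at 26.8 ± 2.87 TPM under control KD against 27.9 ± 1.71 TPM under *Yy1* KD (SD, n = 3 each).

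*Pdhb* encodes the beta subunit of the same decarboxylase and lies on the minus strand of chromosome 14 (8165996 to 8173025). Control KD libraries had 131, 128 and 121 TPM and *Yy1* KD libraries had 116, 113 and 96.0 TPM. Every *Yy1* KD value was below every control value, and the mean was 85.6% of the control. The difference on the log2 scale was -0.23 (standard error 0.09, 95% interval -0.45 to -0.007, unadjusted p = 0.0447), but the limma adjusted p over all genes was 0.197. Two-sided exact permutation gave p = 0.1, the smallest that 3 libraries against 3 allow. Without *Yy1* KD replicate 3, the lowest library, the log2 fold change was -0.14. Among 39 other genes of the pathway lists with a mean of at least 10 TPM, the profile of *Pdhb* over the 6 libraries was most like those of *Mrps36* (Pearson's r = 0.94), *Pdhx* (0.84) and *Sucla2* (0.83). These points share the 6 libraries and their scaling, so the likeness is a description.

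*Dlat* encodes the acetyltransferase that forms the core of the complex and carries its swinging lipoyl arms (chromosome 9, minus strand, 50634633 to 50659780). It was at 20.4, 23.4 and 23.7 TPM under control KD against 25.7, 19.8 and 23.8 TPM under *Yy1* KD. The groups overlapped throughout, with a log2 fold change of 0.03 (95% interval -0.27 to 0.34, limma adjusted p = 0.905).

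*Dld* encodes the dihydrolipoyl dehydrogenase that reoxidises the lipoyl arms, a subunit which the PDH complex shares with the 2-oxoglutarate dehydrogenase complex of the cycle (chromosome 12, minus strand, 31331277 to 31351453). Its values were 67.9, 63.3 and 78.9 TPM under control KD against 63.1, 65.9 and 68.9 TPM under *Yy1* KD. The control values spread more widely (coefficient of variation 11.4%) than the *Yy1* KD values (4.42%). Its log2 fold change was -0.08 (95% interval -0.32 to 0.16, limma adjusted p = 0.681).

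*Cs* encodes citrate synthase, which joins acetyl-CoA to oxaloacetate and so opens the cycle (chromosome 10, plus strand, 128337734 to 128362479). Its level was 90.2, 109 and 106 TPM under control KD against 117, 112 and 113 TPM under *Yy1* KD. All *Yy1* KD values were above all control values. Its log2 fold change of 0.17 (95% interval -0.04 to 0.38, standard error 0.09) did not pass the test (limma adjusted p = 0.309), and without control KD replicate 1, the lowest library, it was 0.09. *Csl*, a relative of *Cs* with 91.9% identity over 1522 bases, was between 0.412 and 1.24 TPM in every library.

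*Idh3a* encodes the catalytic subunit of the NAD-dependent isocitrate dehydrogenase (chromosome 9, plus strand, 54586334 to 54604661). Control KD libraries had 31.9, 33.4 and 36.1 TPM, and *Yy1* KD libraries had 46.2, 33.6 and 34.3 TPM. Only replicate 1 of the *Yy1* KD libraries stood outside the control range. The log2 fold change was 0.15 (95% interval -0.18 to 0.48, limma adjusted p = 0.558) with that library and 0.009 without it.

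*Ogdh* encodes the decarboxylase of the 2-oxoglutarate dehydrogenase complex, which is built on the same plan as the PDH complex (chromosome 11, plus strand, 6291633 to 6356642). It was at 51.0, 54.7 and 46.5 TPM under control KD against 47.6, 45.3 and 44.6 TPM under *Yy1* KD. Control KD replicate 3 lay inside the *Yy1* KD range, and the difference was -0.14 on the log2 scale (95% interval -0.35 to 0.07, limma adjusted p = 0.390). Without control KD replicate 2, the highest library, it was -0.09, and with quantile normalization -0.07.

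*Ogdh* was the only 1 of the 8 genes with a promoter entry in RefSeq (GRCm38.p6) in which a YY1 consensus was found. No entry was matched for *Idh3a*. The letters GCCATNTT, which read AANATGGC on the other strand, and a shorter form that can overlap them, CCGCCAT or ATGGCGG, were searched on both strands in windows from 250 bases before to 50 after each annotated start. The first was present in 6.05% and the second in 4.05% of all 32851 windows. Counted by gene, 6.96% of 27025 genes had the first and 4.69% the second in at least 1 window. *Ogdh* has 6 windows, and each of the other genes with an entry has 1. The same site lies in 2 of the 6 windows, where its motif begins at base 23 or base 2 counted from the annotated start. The site lies at chr11:6292569-6292598 on the plus strand, in an intron of 6 of 7 *Ogdh* transcripts of GENCODE vM21 and in an exon of 0 of them. It is shown beside the window of *Sucla2*, a gene of the cycle described further on that holds the shorter form at chr14:73552797-73552826 on the plus strand, in an exon of 3 of its 7 transcripts (coding in 2 and untranslated in 2). Capitals mark the motif.
Ogdh: tgtaagatcagAAAATGGCggcgttaagca
Sucla2: cggactcagaaATGGCGGcgtccatgttct

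The *Ogdh* site also holds the shorter form. A match of letters is a description of the window and says nothing of binding, and which of the 6 starts is used in morulae was not tested. The level of *Ogdh* did not pass the test, and that of *Sucla2* did. The windows of *Pdhx*, *Sdhb*, *Glud1* and *Mdh1*, which also passed it, held neither motif. Promoter windows of the 8 genes were mostly rich in G and C, with shares from 47.0% (*Dld*) to 72.3% (1 window of *Ogdh*) against a median of 52.7% over all windows. Their observed-to-expected ratio of CG dinucleotides was between 0.62 and 1.14, above the median of 0.384 over all windows (upper quartile 0.75). All windows were used whether or not their genes passed the filter on low values, so these are not shares among expressed genes.

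*Fh1* encodes fumarate hydratase, which adds water to fumarate to give malate (chromosome 1, minus strand, 175600374 to 175625635). Of the 9 transcripts it was the lowest, at 13.7, 15.4 and 15.3 TPM under control KD against 10.2, 12.9 and 12.1 TPM under *Yy1* KD. Each *Yy1* KD value was below each control value, and the mean was 79.3% of the control. Its log2 fold change was -0.31 (95% interval from -0.63 to just under 0, unadjusted p = 0.0499), and the limma adjusted p was 0.210. Between 204 and 541 recovered read pairs per library stood behind these values, the fewest of the 9 genes.

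*Mdh2* encodes the mitochondrial malate dehydrogenase, which regenerates oxaloacetate and closes the cycle (chromosome 5, plus strand, 135778480 to 135790398). Its level was 224, 226 and 225 TPM under control KD against 233, 219 and 220 TPM under *Yy1* KD. The control libraries agreed closely, with a coefficient of variation of 0.339%, and the 3 control values fell inside the *Yy1* KD range. Its log2 fold change was -0.007 (95% interval -0.15 to 0.14, limma adjusted p = 0.962), the narrowest interval of the 9, which corresponds to 89.9% to 110% of the control level. On the log2 scale the widest intervals were those of *Idh3a* (88.4% to 140% of the control) and *Fh1* (64.6% to 100%).

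Other genes of the pathway lists did pass the test. Of those called, only *Pdhx* encodes a subunit of a complex that the 9 genes also encode. The lists drawn up for the pathway held 46 further genes, of which 41 passed the filter on low values. Of these 41, 3 were downregulated and 2 upregulated (12.2%), and 18 had groups that did not overlap (43.9%). Among all genes tested, 6.11% were called and 30.1% did not overlap. Among those with a mean of at least 10 TPM, a level that not all of the 41 reached, the shares were 9.35% and 37.4%. Restricted to the PDH complex and the cycle itself, 14 further genes were tested, 3 were downregulated and 0 upregulated, and 12 of the 14 log2 fold changes were below 0 (median -0.19). The share called was 21.4%, and 42.9% had groups that did not overlap. Of all genes tested 52.8% had a log2 fold change below 0, and of those with a mean of at least 10 TPM 55.1%. *Pdha2*, the testis form of *Pdha1*, and *Csl* did not pass the filter.

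*Pdhx* encodes the protein that tethers the dihydrolipoyl dehydrogenase to the core of the PDH complex. It was at 28.6, 33.7 and 28.9 TPM under control KD against 16.9, 15.5 and 14.5 TPM under *Yy1* KD, with no overlap. Its level fell to 51.6% of the control (log2 fold change -0.91, 95% interval -1.18 to -0.64, limma adjusted p = 0.0126). Without control KD replicate 1 or control KD replicate 3 the adjusted p was 0.0510 and 0.0592, and it was under 0.05 without each of the other 4 libraries.

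*Sucla2* encodes the ATP-specific beta subunit of succinyl-CoA ligase. It fell from 98.7, 112 and 120 TPM in control KD to 74.4, 71.2 and 61.2 TPM in *Yy1* KD morulae, or 62.6% of the control (log2 fold change -0.67, limma adjusted p = 0.0243). *Sdhb*, the iron-sulphur subunit of succinate dehydrogenase, fell from 41.2, 43.3 and 38.3 TPM to 29.8, 28.9 and 29.7 TPM (log2 fold change -0.46, standard error 0.09, limma adjusted p = 0.0322). Neither group pair overlapped. Leaving out any 1 library ended the call of *Sdhb* (log2 fold change -0.51 to -0.42), and that of *Sucla2* remained only without *Yy1* KD replicate 1 (-0.75 to -0.59 over the 6 fits).

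The other subunits of succinyl-CoA ligase, succinate dehydrogenase and the isocitrate and 2-oxoglutarate dehydrogenases were not called. *Suclg1*, the alpha subunit of succinyl-CoA ligase, had a log2 fold change of -0.10 and *Suclg2*, its GTP-specific beta subunit, of -0.31 (limma adjusted p = 0.531 and 0.215). Those of the other succinate dehydrogenase subunits were -0.06 for *Sdha*, 0.13 for *Sdhc* and -0.10 for *Sdhd*. *Idh3b* and *Idh3g*, the other subunits of the isocitrate dehydrogenase of *Idh3a*, had log2 fold changes of opposite sign, -0.31 and 0.28 (limma adjusted p = 0.0907 and 0.161), each with groups that did not overlap. *Dlst*, the core of the 2-oxoglutarate dehydrogenase complex, had -0.44 (limma adjusted p = 0.139) and its adaptor *Mrps36* -0.21.

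**Figure D3:**
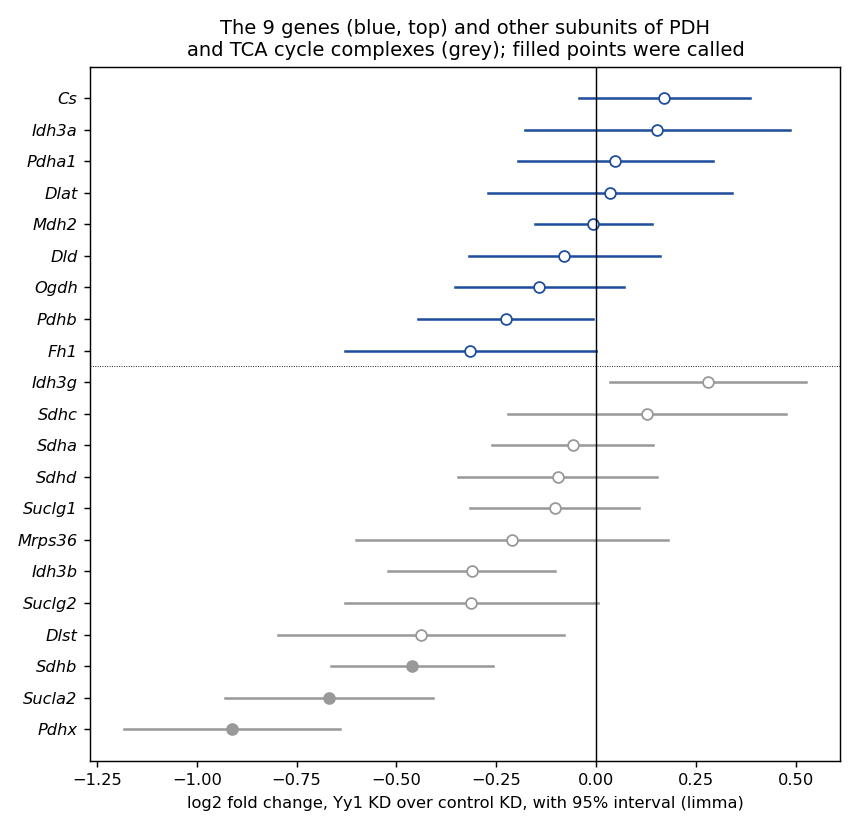
Log2 fold change of *Yy1* KD over control KD with its 95% interval from limma for the 9 genes (blue, above the dotted line) and the 12 other subunits of PDH and TCA cycle complexes named in the text (grey); filled points were called. *Pdhx*, *Sucla2* and *Sdhb* are the filled points, all below 0.

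The 2 upregulated genes of the lists act at the edge of the cycle. *Glud1*, the glutamate dehydrogenase that feeds 2-oxoglutarate into it, was at 41.7, 36.8 and 39.7 TPM under control KD against 87.2, 96.1 and 89.5 TPM under *Yy1* KD. This was 231% of the control, with a log2 fold change of 1.19 and an adjusted p of 0.00245 by limma, and the call remained whichever of the 6 libraries was left out. *Mdh1*, the cytosolic counterpart of *Mdh2*, rose from 11.2, 10.9 and 11.03 TPM to 24.6, 17.2 and 18.9 TPM (log2 fold change 0.80, standard error 0.15, limma adjusted p = 0.0328), a call that ended when any 1 library was left out (0.66 to 0.91). Of the PDH kinases and phosphatases, 0 of 5 tested were called, of the 3 genes of the mitochondrial pyruvate carrier list 0, of the 3 genes of lipoic acid synthesis and attachment 0, and of the 4 genes of the lactate and pyruvate list 0. At an unadjusted p under 0.05 these counts were 1, 0, 0 and 1, beside 23.8% of all genes. On the recovered read pairs, limma-voom called 4 of the other pathway genes downregulated (*Pdhx*, *Sucla2*, *Sdhb* and *Pdp2*) and 2 upregulated (*Glud1* and *Got2*, the mitochondrial aspartate aminotransferase), and *Mdh1* was not among the 38 it tested. *Pdp2*, a PDH phosphatase chosen here after its values were seen, had the highest level of the kinases and phosphatases, at 372 ± 10.9 TPM under control KD against 309 ± 27.1 TPM under *Yy1* KD (SD, n = 3 each; limma adjusted p = 0.109).

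Ratios of genes within a library do not depend on how the library was scaled. They were taken on log2(TPM) for 12 ratios set with the design and 11 added after the values were seen, and each was compared with a two-sided exact permutation test over the 6 libraries, in which p cannot go below 0.1. After Benjamini-Hochberg adjustment over the 23 ratios, no p was below 0.164. The ratio of *Pdha1* to *Pdhb*, the subunits of the decarboxylase, had a geometric mean of 2.42 in control KD and 2.93 in *Yy1* KD morulae, a difference of 0.28 on the log2 scale with no overlap (exact permutation p = 0.1). That of *Dld* to *Dlat* was 3.11 and 2.87, with overlap (exact permutation p = 0.5). The ratio of *Dlat* to *Pdha1* was 0.0732 in control KD and 0.0725 in *Yy1* KD morulae (exact permutation p = 1).

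Against the mean of the 9 genes in the same library, *Fh1* was lower by 0.30 and *Cs* higher by 0.21 on the log2 scale in *Yy1* KD morulae (exact permutation p = 0.1 for each), both without overlap. *Idh3a* was higher by 0.20 and *Mdh2* by 0.04, also without overlap (exact permutation p = 0.1 for each). For *Idh3a*, *Yy1* KD replicate 1 was at -0.594. Replicates 2 and 3 were at -0.959 and -0.936, close to the highest control value of -0.968. The level of *Mdh2* itself had a log2 fold change of -0.007, so its rise here is only relative to the mean of the 9. Against the same mean the difference was -0.19 for *Pdhb*, 0.09 for *Pdha1*, 0.08 for *Dlat*, -0.04 for *Dld* and -0.10 for *Ogdh*, all with overlapping groups.

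Among the added ratios, *Pdhx* to *Dlat* went from 1.35 in control KD to 0.680 in *Yy1* KD morulae, a difference of -0.99 on the log2 scale. *Idh3a* to *Idh3b* went from 0.411 to 0.570 (0.47 on the log2 scale), and *Mdh1* to *Mdh2* from 0.0491 to 0.0892 (0.86). None of these 3 overlapped between groups (exact permutation p = 0.1 for each). The pairs were picked after the values were seen, and *Pdhx* and *Mdh1* had already been called. These p-values are therefore a description and add no evidence to the calls. *Idh3a* to *Idh3g* (0.502 and 0.460) and *Dlst* to *Ogdh* (0.232 and 0.184) overlapped, the only added ratios to do so.

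**Figure D4:**
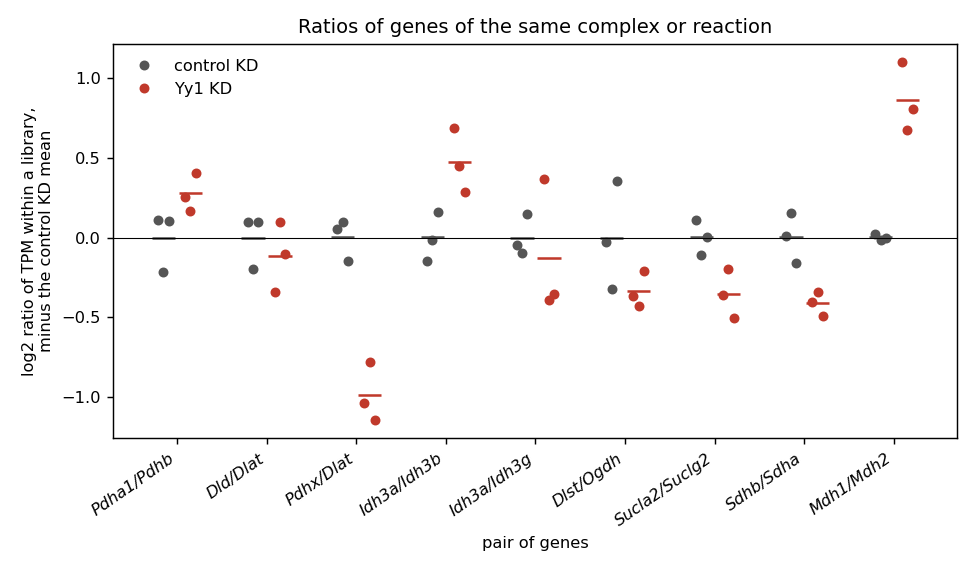
Log2 ratio of the TPM of a pair of genes within each library, minus the mean of that ratio in control KD, for 9 pairs of the same complex or reaction; points are libraries (control KD grey, *Yy1* KD red) and bars are group means. *Pdhx*/*Dlat* lies lowest in *Yy1* KD and *Mdh1*/*Mdh2* highest.

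The 8 genes other than *Pdha1* shared no exonic bases with another annotated gene. Transcripts of other genes with at least 90% identity over at least 150 bases were looked for, because reads that fit several places may go uncounted. *Pdhb* has a processed pseudogene, *Gm6123*, with 97.0% identity over 1079 bases and between 0.0944 and 1.13 TPM, and the closest relatives of *Cs* had 92.1% and 91.9% identity. *Pdha1* has 93.0% identity over 344 bases with *4930519F09Rik*, which was at most 0.576 TPM. No such transcript was found for *Dlat*, *Dld*, *Idh3a*, *Ogdh*, *Fh1* or *Mdh2*. Recovered read pairs per library were between 5702 and 10313 for *Pdha1* and at least 516 for each of the 9 genes but *Fh1*.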

How the data were processed

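RNA was measured in 3 control KD and 3 *Yy1* KD libraries, grouped and numbered by their titles. Per the labels and the study's methods, the authors trimmed reads (Trim Galore 0.6.7), aligned them to mm10 (HISAT2 2.2.1), removed ribosomal reads with bedtools, assigned pairs to GENCODE vM25 genes (featureCounts 2.0.1; pairs on several genes divided, strand ignored) and deposited TPM, which sums to 1000000 per library. TPM is no count, so limma (3.58.1, R 4.3.3) was used with a variance trend and without a replicate block on log2(TPM + 1), which understates changes of low genes. Genes with TPM of at least 1 in at least 3 libraries were tested, and p-values are two-sided. The limma fit was also run on simulated data with changes larger than any seen in the 9 genes. That run does not test changes of their size.

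The members and lists were chosen with earlier results of these data known. Named genes were *Yy1*, the 9 members, genes of the lists that were called or complete a complex, and the 3 list genes most like the member with the lowest p. Coordinates, exon lengths and overlaps came from GENCODE vM21 (GRCm38, the assembly of mm10). Read pairs were recovered as TPM times exon length divided by the value of 1 pair. Between 80.6% and 81.6% of values under 20 pairs were whole within 0.005. Copies were searched with BLAST 2.17.0. Alternatives were a replicate block, dropping each library in turn, a pseudocount of 0.1, filtering on a mean of 5 TPM or not at all, and scaling by median ratios or quantiles. limma-voom and the motifs were added after seeing the data. Protein sequences were not used here. Values of 1 gene of the lists are not reported here.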

Additional observations from a re-analysis of the deposited data

How the results depend on the processing

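None of the 9 genes was called under any of the 13 alternatives, and their median log2 fold change stayed between -0.050 and 0.019. The sign of values near 0 changed. *Mdh2* had a log2 fold change of 0.019 with median-ratio scaling, 0.008 with quantile normalization and 0.010 with limma-voom, and -0.036 to 0.008 over the fits that left out 1 library. Over the same 6 fits *Dlat* had -0.044 to 0.137, *Dld* -0.149 to 0.008 and *Pdha1* -0.050 to 0.125. *Cs*, *Idh3a*, *Ogdh*, *Pdhb* and *Fh1* kept their sign in all 13.

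Of the other pathway genes, 3 were called downregulated and 2 upregulated as reported, 1 and 1 without a filter on low values, 3 and 3 of 32 tested at a mean of at least 5 TPM, 1 and 1 with a replicate block, and 0 to 2 and 1 in the fits that left out 1 library. Over all genes, without a filter 77 were called upregulated and 270 downregulated, and with limma-voom 800 and 1290. Leaving out 1 library gave 22 to 92 and 53 to 326, both lowest without control KD replicate 3. The replicate block gave 69 and 218. Deviations of same-numbered libraries correlated at -0.0039, 0.032 and 0.075, and 3 of 6 libraries correlated best with their own number, so the numbers were not taken as pairs.

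The cause of these changes was not tested, and leaving out 1 library also lowers the number of libraries. With 3 libraries per group the 95% intervals reached from 64.6% (*Fh1*) to 140% (*Idh3a*) of the control level, and recovered read pairs per library were at least 516 for 8 of the 9 genes.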
